A study of Mus musculus with 12 samples.

Results

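Cells handle acid with 2 linked sets of proteins that were measured here at the mRNA level: 4 carbonic anhydrases (Car9, Car12, Car13 and Car5b) and 4 bicarbonate transporters of the Slc4 family (Slc4a2, Slc4a3, Slc4a4 and Slc4a7). These 8 genes, of 21959 in the deposited table, were taken by name, and all 8 were found. They had been grouped under a heading that also names sodium-proton exchangers, of which the 8 hold 0, so that family is described from a separate list further on. The RNA came from C8-D1A, an established mouse line labelled as astrocyte, in 4 groups of 3 libraries, and all cells were collected after 24 h. Control cells were kept at 37 °C in an incubator with 5% CO2 and standard medium. One treated group was kept under 15% CO2, another received 20 mM lactic acid in the medium, and the last was grown in medium whose sodium bicarbonate was lowered to 0.2 g/L (low NaHCO3). The labels do not give the pH that each treatment reached, so the treatments cannot be matched by acidity. They also do not say whether the 3 libraries of a group were separate cultures, and p-values then measure only the spread between these libraries, which may be technical.

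Carbonic anhydrases speed the conversion of CO2 and water into bicarbonate and a proton, and back. Slc4 proteins carry bicarbonate across the cell membrane: sodium-coupled members such as Slc4a4 and Slc4a7 bring it in and so raise the pH of the cell, while the anion exchangers Slc4a2 and Slc4a3 trade it outward for chloride and so load the cell with acid. In brain, astrocytes are known for strong sodium bicarbonate cotransport through Slc4a4. Car9 is best known from tumours, where its transcription is switched on by the hypoxia-inducible factor HIF.

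Values are TPM (transcripts per 1000000), deposited by the authors with 1 column per library. Each column summed to 1000000, so a value is a share of a library's RNA, and the sequencing depth is unknown. Between 14531 and 17319 genes had a value above 0 in a library. The first control library (control 1) stood apart: its Spearman correlation across genes with the other 11 libraries was 0.859 to 0.884, against 0.958 to 0.980 among those 11. All 7 neuron, 7 oligodendrocyte and 6 microglia markers listed were highest in it. So were 8 of 10 astrocyte, 5 of 6 endothelial and mural, and 3 of 4 choroid plexus and ependymal markers. All 5 red blood cell and 5 fibroblast markers were too, but 0 of 5 muscle markers. The 7 neuron markers summed to 1906 TPM there and to 4.79 to 10.2 TPM in the others, and Snap25, a neuronal vesicle protein, stood at 603 TPM against at most 0.0363 TPM. The comparisons with control are therefore given with and without this library, as are the other calls that it changes. In bulk RNA, fewer cells of a type and less RNA per cell cannot be told apart. In the other 11 libraries only some astrocyte markers stood well above 0: S100b (33.5 to 49.8 TPM), Sox9 (31.2 to 52.5 TPM) and Vim (1327 to 2678 TPM). Of the other 7 of the 10 astrocyte markers, Gfap reached at most 1.19 TPM, Aldoc 0.982 TPM, Aqp4 0.356 TPM, Slc1a2 0.416 TPM and Slc1a3 0.021 TPM. The 5 muscle markers listed were detected in the same libraries and summed to 52.2 to 56.6 TPM in the other 2 controls, 97.3 to 109 TPM under 15% CO2, 63.8 to 71.1 TPM with lactic acid and 59.9 to 75.3 TPM in low NaHCO3. The 7 oligodendrocyte markers summed to 35.2 to 37.5 TPM in low NaHCO3 and to 59.0 to 76.8 TPM in the other groups without control 1. The part of these marker differences in the results below was not tested.

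The promoters of 3 genes are printed because the results turn on their genes: Car9 and Slc4a7 rose, and Slc4a2 fell, in at least 2 of the 3 treatments. They are the 250 bases before the start site, 5′ to 3′ on the gene's strand, from RefSeq's table for GRCm38.p6, an older build than the authors' GRCm39. Capitals mark the core of the hypoxia response element, searched as ACGTG or GCGTG on either strand (CACGT or CACGC where it lies on the other strand). The Car9 stretch is chr4:43506776-43507025 (plus strand), that of Slc4a7 is chr14:14718534-14718783 (plus strand), and that of the first of 2 Slc4a2 starts is chr5:24424982-24425231 (plus strand).
Car9: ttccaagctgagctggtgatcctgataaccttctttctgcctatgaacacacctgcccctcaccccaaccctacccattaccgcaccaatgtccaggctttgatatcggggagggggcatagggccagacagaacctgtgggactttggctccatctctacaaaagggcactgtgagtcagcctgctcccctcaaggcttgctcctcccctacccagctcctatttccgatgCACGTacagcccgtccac
Slc4a7: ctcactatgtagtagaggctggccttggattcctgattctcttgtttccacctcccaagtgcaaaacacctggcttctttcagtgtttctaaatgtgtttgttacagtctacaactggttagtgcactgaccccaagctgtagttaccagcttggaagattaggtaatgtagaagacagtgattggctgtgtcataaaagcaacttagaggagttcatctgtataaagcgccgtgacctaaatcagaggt
Slc4a2: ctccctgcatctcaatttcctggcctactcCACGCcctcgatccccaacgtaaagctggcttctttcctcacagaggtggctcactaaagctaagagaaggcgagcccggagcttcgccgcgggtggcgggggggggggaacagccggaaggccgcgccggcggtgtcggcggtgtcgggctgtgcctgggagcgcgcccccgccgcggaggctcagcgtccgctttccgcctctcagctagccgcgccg
The Car9 promoter held 1 core, 18 to 14 bases before the start. The Slc4a2 stretch held 1, 220 to 216 bases before it, and the second Slc4a2 start and the Slc4a7 promoter held 0. RefSeq's table had a promoter for 7 of the 8 genes, with 9 starts in all, and 5 of the 9 held a core: besides Car9 and Slc4a2 these were Car5b with 5 cores, Slc4a3 with 2 and 1 of 2 Slc4a4 starts with 1. Of all 32851 mouse promoters of the same length, 38.6% held a core. A match describes the letters and not a bound site, and its absence says only that these letters are not in this window.

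Of the 8 genes, 6 were expressed highly enough to be tested across all genes, that is, at 1 TPM or more in all 3 libraries of a group. Car12 and Car5b were not. Slc4a4 passed through the 15% CO2 and lactic acid groups, since it was below 1 TPM in every low NaHCO3 library, and a gene that passes through its higher groups is the more likely to differ. Differences are log2 changes of TPM + 1, from limma with Benjamini-Hochberg adjustment over all genes tested in a comparison, and a gene is said to rise or fall at an adjusted p under 0.05. The 3 comparisons with control share their control libraries.

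**Figure D1:**
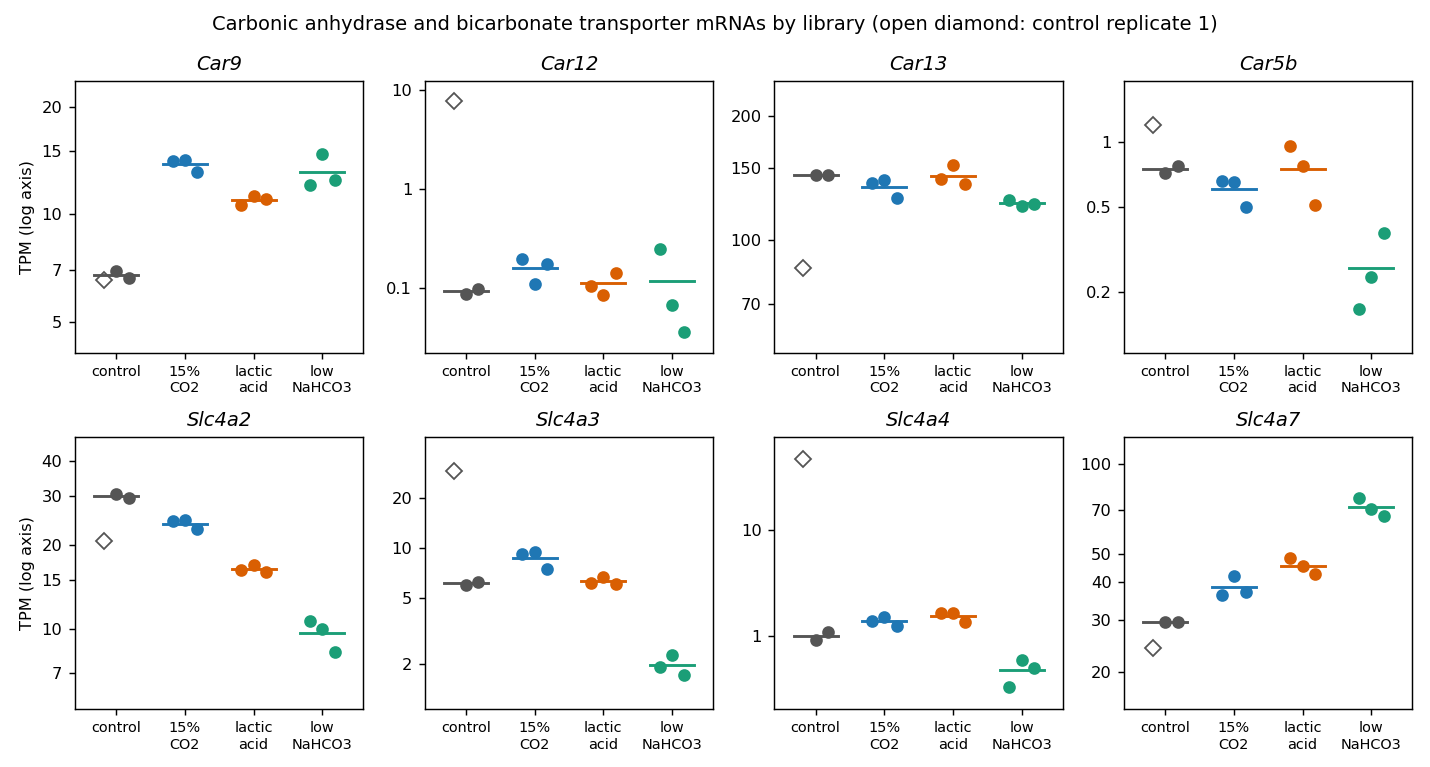
TPM of the 8 genes in each library on log axes, by group. Points are libraries, the open diamond is control 1, and bars are group means without it. Car9 and Slc4a7 lay above the controls in all 9 treated libraries, and Slc4a2, Slc4a3 and Slc4a4 were lowest in low NaHCO3.

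Car9 (ENSMUSG00000028463), which sits in the cell membrane with its catalytic part outside, rose in all 3 treatments. It stood at 6.57, 6.92 and 6.63 TPM in the controls and at 14.1, 14.2 and 13.1 TPM under 15% CO2. With lactic acid it reached 10.6, 11.2 and 11.1 TPM, and in low NaHCO3 it reached 12.1, 14.8 and 12.5 TPM. Every treated library was above every control, including control 1, which did not stand apart for this gene. The log2 change was 0.94 ± 0.099 (SE) under 15% CO2 (adjusted p = 0.00367), 0.63 ± 0.099 with lactic acid (adjusted p = 0.011) and 0.87 ± 0.099 in low NaHCO3 (adjusted p = 3.66e-05). Without control 1 these were 0.93, 0.62 and 0.86, with adjusted p of 0.0015, 0.00282 and 1.64e-05. In order of level the groups ran control, lactic acid, low NaHCO3 and 15% CO2. The first step, from control to lactic acid, passed the test. The 3 lactic acid libraries lay below all 6 libraries of the other treatments, but the difference from low NaHCO3 passed only without control 1 (0.23, adjusted p = 0.0683, and 0.0298 without it) and was lost again without any 1 lactic acid library or low NaHCO3 2 (adjusted p of 0.0509 to 0.108). The difference from 15% CO2 did not pass (−0.31, 95% interval −0.52 to −0.090, adjusted p = 0.34, and 0.0671 without control 1). Low NaHCO3 and 15% CO2 overlapped, with a difference of −0.073 (95% interval −0.29 to 0.14).

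Car12 (ENSMUSG00000032373), another membrane-bound form that acts outside the cell, was close to absent from the cultures. It was at 7.73 TPM in control 1 and at 0.0863 and 0.0973 TPM in the other controls. Across the 9 treated libraries it lay between 0.0351 and 0.245 TPM, and without control 1 the lactic acid and low NaHCO3 groups overlapped the controls, while the 15% CO2 libraries (0.194, 0.110 and 0.173 TPM) lay above both. The summed marker levels that set control 1 apart are given above. In a fit of all 21959 genes without that library, no comparison of Car12 passed: its log2 changes against control were 0.085, 0.023 and 0.026 under 15% CO2, lactic acid and low NaHCO3, each ± 0.074 (SE).

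Car13 (ENSMUSG00000027555), a cytosolic form, was the most abundant of the 4 and changed little. The controls were at 85.7 TPM in control 1 and at 144.0 and 143.7 TPM in the others. It stood at 137.6, 139.8 and 126.5 TPM under 15% CO2, at 140.4, 151.8 and 136.8 TPM with lactic acid, and at 125.0, 121.2 and 122.7 TPM in low NaHCO3. No comparison with control passed over 12 libraries, with adjusted p of 0.666, 0.392 and 0.917. Without control 1 it fell in low NaHCO3 by 0.22 on the log2 scale (SE 0.069, adjusted p = 0.0138), and all 3 libraries were below both controls. It no longer passed when control 2 or control 3 was left out too (adjusted p = 0.0731 and 0.0697). That fall was close to the median change of all genes there, −0.18, and with median-of-ratios scaling it was −0.034 (adjusted p = 0.633).

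Car5b (ENSMUSG00000031373), a mitochondrial form, was at or below about 1 TPM. The controls were at 1.21, 0.722 and 0.776 TPM, the 15% CO2 libraries at 0.657, 0.656 and 0.497 TPM, and the lactic acid libraries at 0.962, 0.775 and 0.508 TPM. All 3 low NaHCO3 libraries, at 0.167, 0.236 and 0.378 TPM, lay below every other library. With no filter on low values, which leaves 21959 genes, its change in low NaHCO3 was −0.59 ± 0.12 (adjusted p = 0.00688), and −0.48 ± 0.11 without control 1 (adjusted p = 0.0131). At these levels the log2(TPM + 1) scale understates the ratio of TPM. Taken as a sum, the 4 carbonic anhydrases came to 136 to 164 TPM in the 11 libraries without control 1, of which Car13 made up most.

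Slc4a7 (ENSMUSG00000021733), an electroneutral sodium bicarbonate cotransporter that brings bicarbonate into the cell, rose in lactic acid and in low NaHCO3. The controls stood at 24.1, 29.4 and 29.4 TPM and the 15% CO2 libraries at 36.4, 42.0 and 37.1 TPM. The lactic acid libraries reached 48.1, 45.2 and 42.8 TPM, and those in low NaHCO3 reached 76.7, 70.7 and 66.8 TPM. The 4 groups did not overlap in any library and were ordered control, 15% CO2, lactic acid and low NaHCO3. Against control the log2 change was 0.70 ± 0.10 with lactic acid (adjusted p = 0.00903) and 1.34 ± 0.10 in low NaHCO3 (adjusted p = 2.69e-06), and 0.61 and 1.25 without control 1 (adjusted p = 0.00205 and 5.7e-07). Under 15% CO2 it was 0.47 ± 0.10 with adjusted p = 0.0514, just outside the threshold, and 0.37 ± 0.086 without control 1, with adjusted p = 0.0266. That call was in turn lost when control 2, control 3, 15% CO2 1 or 15% CO2 2 was also left out (adjusted p = 0.212, 0.146, 0.0531 and 0.0593) or with no filter on low values (adjusted p = 0.0534). The step from 15% CO2 to lactic acid did not pass (0.23, 95% interval 0.0099 to 0.46, adjusted p = 0.558, and 0.118 without control 1). Low NaHCO3 was higher than 15% CO2 by 0.87 ± 0.10 (adjusted p = 4.33e-05) and higher than lactic acid by 0.64 ± 0.10 (adjusted p = 0.000407), and both passed without control 1 (adjusted p = 2.14e-06 and 2.49e-05).

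Slc4a4 (ENSMUSG00000060961), the electrogenic sodium bicarbonate cotransporter of astrocytes, was at 47.2 TPM in control 1 and near 1 TPM or lower in the cultures otherwise. The other controls were at 0.906 and 1.09 TPM, the 15% CO2 libraries at 1.39, 1.495 and 1.23 TPM, and the lactic acid libraries at 1.65, 1.64 and 1.34 TPM. Low NaHCO3 gave 0.328, 0.596 and 0.494 TPM, below every other library. With all 12 libraries no comparison passed, and the standard error of each was 0.94. Without control 1 the gene fell in low NaHCO3 by 0.44 on the log2 scale against control (SE 0.14, adjusted p = 0.0163), by 0.69 against 15% CO2 (adjusted p = 0.000476) and by 0.79 against lactic acid (adjusted p = 0.000188). The gene passed the 1 TPM filter only through 15% CO2 and lactic acid, so the last 2 differences are given as descriptions. The fall against control was lost when control 3 or low NaHCO3 1 was left out too (adjusted p = 0.113 and 0.0548). Its changes under 15% CO2 and lactic acid were then 0.25 and 0.35 (adjusted p = 0.283 and 0.105), the opposite sign to those with control 1 in the fit, −1.28 and −1.18.

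Slc4a2 (ENSMUSG00000028962), the widely expressed chloride-bicarbonate exchanger, moved opposite to Slc4a7. The controls stood at 20.6 TPM in control 1 and at 30.3 and 29.3 TPM in the others. It was at 24.3, 24.5 and 22.8 TPM under 15% CO2, at 16.4, 17.0 and 16.1 TPM with lactic acid, and at 10.8, 10.1 and 8.34 TPM in low NaHCO3. Without control 1 the 4 groups did not overlap and were ordered control, 15% CO2, lactic acid and low NaHCO3 from high to low, while control 1 lay between 15% CO2 and lactic acid. In low NaHCO3 it fell by 1.36 on the log2 scale (SE 0.14, adjusted p = 1.96e-05), and by 1.53 without control 1. With lactic acid it fell by 0.65 (SE 0.14, adjusted p = 0.0321), and by 0.82 without control 1 (SE 0.098, adjusted p = 0.000968). The lactic acid call over 12 libraries was lost when any 1 of 8 libraries was left out (adjusted p up to 0.102): control 2 or 3, 15% CO2 1, any lactic acid library, or low NaHCO3 1 or 2. With control 1 left out throughout, it passed whichever further library was left out, with adjusted p of 0.000607 to 0.0239. Under 15% CO2 the change was −0.14 ± 0.14 (adjusted p = 0.636), and −0.31 ± 0.098 without control 1 (adjusted p = 0.0762).

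Between treatments, Slc4a2 was lower in low NaHCO3 than under 15% CO2 by 1.22 (adjusted p = 4.27e-05) and than with lactic acid by 0.71 (adjusted p = 0.00177), each ± 0.14, and both passed without control 1 (adjusted p = 4.86e-07 and 2.92e-05). Its difference between lactic acid and 15% CO2 was −0.51, with adjusted p = 0.24 over 12 libraries and 0.0105 without control 1. Without 15% CO2 1 as well, that p was 0.054.

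Slc4a3 (ENSMUSG00000006576), a chloride-bicarbonate exchanger of excitable tissue such as brain and heart, fell in low NaHCO3. It stood at 29.2 TPM in control 1 and at 5.97 and 6.25 TPM in the other controls. The 15% CO2 libraries were at 9.17, 9.50 and 7.47 TPM, the lactic acid libraries at 6.10, 6.72 and 6.09 TPM, and those in low NaHCO3 at 1.92, 2.27 and 1.71 TPM. Low NaHCO3 was below every other library, lactic acid overlapped controls 2 and 3, and 15% CO2 was above both. The fall in low NaHCO3 was 1.96 on the log2 scale over 12 libraries (log2 change −1.96 ± 0.44, adjusted p = 0.00307) and was smaller without control 1, at −1.27 ± 0.12 (adjusted p = 6.22e-06). Under 15% CO2 the change was −0.25 ± 0.44 (adjusted p = 0.789) with control 1 and 0.44 ± 0.12 (adjusted p = 0.0529) without it, and with lactic acid it was −0.66 and 0.038, none of which passed. Over 10 other settings of the limma fit, the 15% CO2 change ran from −0.279 to 0.539 and passed in 2 (lowest adjusted p = 0.0225). Against 15% CO2 the level in low NaHCO3 was lower by 1.71 on the log2 scale (log2 change −1.71 ± 0.44, adjusted p = 0.00709, and 2.55e-07 without control 1). Against lactic acid it was −1.30 ± 0.44 (adjusted p = 0.0288), a call lost when any 1 of the 6 libraries of these 2 groups was left out (adjusted p of 0.0541 to 0.082). Without control 1 the same difference had adjusted p = 1.89e-06.

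**Figure D2:**
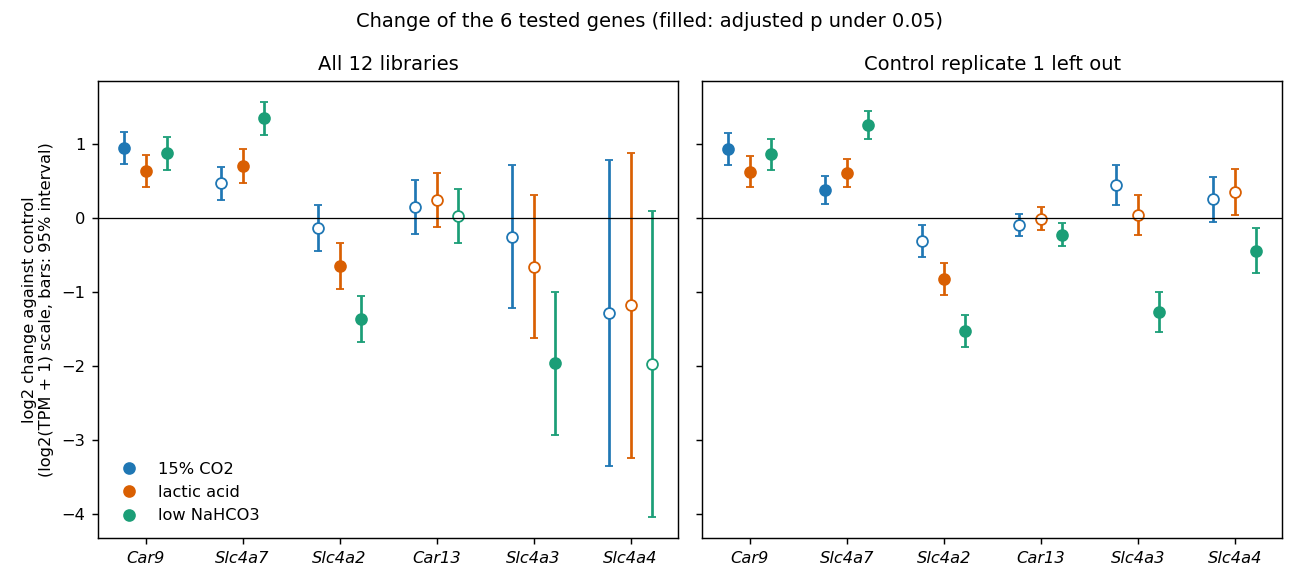
Log2 change against control of the 6 genes tested, with 95% intervals, over all 12 libraries (left) and without control 1 (right). Colours are treatments and filled points have an adjusted p under 0.05. The intervals of Slc4a3 and Slc4a4 are wide with control 1 and narrow without it, while Car9 and Slc4a7 lie above 0 in both panels.

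Counted over the comparisons with control, 1 of the 6 tested genes rose and 0 fell under 15% CO2, where 1.41% of all 11996 genes passed (1.34% higher and 0.0667% lower). Without control 1, 2 rose and 0 fell, where 7.62% of 12023 genes passed (5.99% higher and 1.63% lower). With lactic acid 2 rose and 1 fell, beside 4.40% of all genes (2.73% higher and 1.68% lower), and the same counts were found without control 1, beside 16.6% (9.31% higher and 7.34% lower). In low NaHCO3 2 rose and 2 fell, beside 56.2% (20.5% higher and 35.8% lower). Without control 1, 2 rose and 4 fell, beside 64.6% (23.1% higher and 41.5% lower). In fits of only the 2 groups compared, 0 genes in all passed under 15% CO2 or lactic acid, and these calls ended: the adjusted p of Car9 was then 0.138 and 0.206, and with lactic acid that of Slc4a7 was 0.206 and that of Slc4a2 0.243. More of all genes than not passed in low NaHCO3, so counts of these genes there are near the background. Ranked among the log2 changes of all genes there, Slc4a7 was at percentile 97.6 (97.2 without control 1), Car9 at 93.3 (93.7), Car13 at 62.5 (46.9), Slc4a2 at 8.3 (2.7), Slc4a3 at 2.1 (5.7) and Slc4a4 at 2.1 (34). The median log2 change of all genes was −0.19 in low NaHCO3 against control, and 0.012 and −0.033 in the other treatments. Under median-of-ratios scaling it was −0.007, and the low NaHCO3 changes of Car9, Slc4a7 and Slc4a2 were then 1.05, 1.54 and −1.18, all still past the threshold. That scaling moved the share of higher genes among all calls in low NaHCO3 from 36.4% to 52.4%, and under 15% CO2 from 95.3% to 85.1%. Without control 1 it moved these shares from 35.8% to 51.2% and from 78.6% to 54.7%.

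Lactic acid and 15% CO2 were not separated by any of the 6 genes over 12 libraries, where 0.333% of genes passed and 0 of these did. At an unadjusted p under 0.05 there were 3, Car9, Slc4a2 and Slc4a7. The share of all genes at this unadjusted threshold is not given, here or for the lists below. Such counts therefore have no background beside them and are not read as results. Without control 1, 1 passed (Slc4a2), beside 4.80%. Low NaHCO3 differed from 15% CO2 in 3 of 6 (52.7% of all genes), and in 4 without control 1 (69.9%). From lactic acid it differed in 3 of 6 (50.0%), and in all 6 without control 1 (68.1%). A moderated F test over the 4 groups passed for 4 of 6 (Car9, Slc4a2, Slc4a3 and Slc4a7), beside 55.2% of all genes, and for 6 of 6 without control 1, beside 75.4%. Without control 1, the counts of low NaHCO3 against 15% CO2 and lactic acid, and of the F test, include Slc4a4. That gene passed the filter only through 15% CO2 and lactic acid, which makes a difference more likely.

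The opposed pair Slc4a7 and Slc4a2 gave a ratio that stepped up from group to group. It is a description, since the pair was chosen after its values were seen. Slc4a7 TPM divided by Slc4a2 TPM was 1.17, 0.969 and 1.004 in the controls and 1.499, 1.71 and 1.62 under 15% CO2. It was 2.94, 2.66 and 2.67 with lactic acid and 7.13, 7.03 and 8.01 in low NaHCO3. No library overlapped another group, control 1 included, and a ratio of 2 genes within a library does not depend on how libraries are scaled. Across the 11 libraries without control 1, log2(TPM + 1) of the 2 genes had a Pearson r of −0.953, and Slc4a3 and Slc4a4 had 0.900. These describe libraries that share groups and carry no test.

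**Figure D3:**
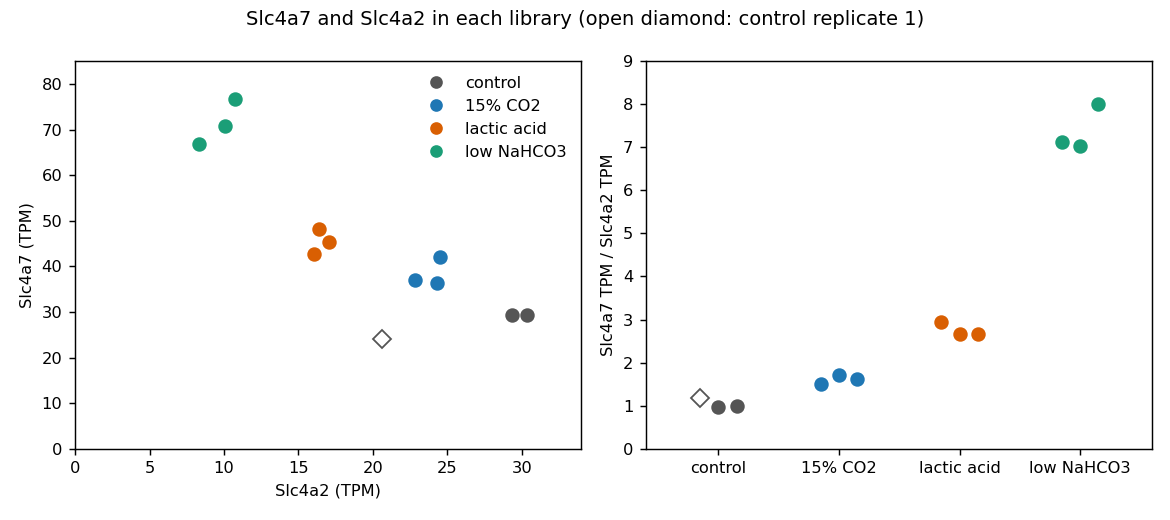
Slc4a7 against Slc4a2 in TPM (left) and their ratio (right) in each library, with control 1 as the open diamond. The ratio lies near 1 in the controls, at 1.499 to 1.71 under 15% CO2, at 2.66 to 2.94 with lactic acid and at 7.03 to 8.01 in low NaHCO3.

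The rest of the acid-base machinery was described from lists of the other genes of each family. Of 12 further carbonic anhydrases only 3 were expressed enough to test, Car6 (a secreted form), Car11 (a related protein without the enzyme activity) and Car14 (membrane-bound). Car2 and Car4, the cytosolic and membrane forms of brain glia and vessels, were at 72.7 and 25.6 TPM in control 1 and at no more than 0.0902 and 0 TPM in the other 11 libraries. Over 12 libraries 0 of the 3 passed against control in any treatment, with adjusted p for Car6 and Car11 of 0.264 and 0.983 under 15% CO2, 0.154 and 0.973 with lactic acid, and 0.281 and 0.0549 in low NaHCO3. Of all genes, 1.41%, 4.40% and 56.2% passed in these treatments. At an unadjusted p under 0.05 there was 1 in each: Car6 under 15% CO2 and with lactic acid, and Car11 in low NaHCO3. Without control 1, Car11 rose under 15% CO2 and lactic acid (0.81 ± 0.19 in both, adjusted p = 0.0292 and 0.0172), and in low NaHCO3 Car14 rose (1.07 ± 0.20) and Car6 fell (−0.51 ± 0.14). Car14 was tested there only through low NaHCO3, the group where it was high (1.25, 1.67 and 2.52 TPM, against 0.253 to 0.676 TPM in the other 8 libraries). The filter therefore favoured a difference, and its rise is given as a description. Car11 was at 93.7 TPM in control 1 and at 16.9 and 18.4 TPM in the other controls. The Car6 fall did not pass under median-of-ratios scaling.

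Of 17 other genes, from the Slc4 and Slc26 families that hold bicarbonate transporters and Cftr, 7 were tested. They were listed by family, and not by whether each carries bicarbonate. In low NaHCO3, 1 rose and 5 fell, with and without control 1, where 20.5% of all genes rose and 35.8% fell (23.1% and 41.5% without control 1). The largest falls over 12 libraries were Slc26a2 (−1.66 ± 0.16), which carries sulfate, Slc26a7 (−1.18 ± 0.20), which was below 1 TPM in low NaHCO3, Slc26a6 (−1.17 ± 0.17) and Slc4a11 (−0.90 ± 0.20), and the rise was Slc26a11 (0.42 ± 0.12), named after its value was seen. The fifth fall, Slc4a8, did not pass under median-of-ratios scaling. Slc26a7 passed the 1 TPM filter only through its higher groups, which makes a difference more likely. Its fall is given as a description, and the count of 5 and the median of the 7 include it. The 7 had a median change of −0.90 beside −0.19 over all genes. Under 15% CO2 and with lactic acid 0 passed over 12 libraries, beside 1.41% and 4.40% of all genes, and 1 and 2 were at an unadjusted p under 0.05. The most abundant tested, Slc26a2 and Slc4a8, then had −0.085 and −0.28 under 15% CO2 (adjusted p = 0.808 and 0.598), and −0.23 and −0.015 with lactic acid (adjusted p = 0.387 and 0.977). Without control 1 Slc26a2 fell in both (−0.32 and −0.46, adjusted p = 0.0371 and 0.00483), and Slc4a8, a sodium-driven chloride-bicarbonate exchanger, rose with lactic acid (0.37 ± 0.10, adjusted p = 0.0345). Of all genes, 7.62% then passed under 15% CO2 and 16.6% with lactic acid. Slc4a10, a transporter of neurons, was at 136 TPM in control 1 and at most 0.0764 TPM elsewhere.

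Sodium-proton exchangers extrude acid in exchange for sodium and need no bicarbonate. Of 12 listed, 8 were tested, and 0 rose in any comparison with control. In low NaHCO3 3 fell, with and without control 1 and under either scaling, which is near the share of all genes that fell there (35.8%, and 41.5% without control 1) and so no result about the family. The 3 were Slc9a2 (−1.16 ± 0.16), a form of the cell surface, and Slc9a9 (−1.14 ± 0.11) and Slc9a7 (−0.85 ± 0.11), which act in endosomes and the Golgi. Their levels fell from 2.86 to 4.25 TPM in the controls to 0.764 to 1.06 TPM for Slc9a2, from 14.2 to 17.1 TPM to 5.800 to 6.87 TPM for Slc9a9, and from 8.52 to 10.6 TPM to 4.80 to 5.03 TPM for Slc9a7. Slc9a2 thus passed the 1 TPM filter through its higher groups, which makes a difference more likely. In the 15% CO2 and lactic acid comparisons 0 passed by limma, with or without control 1, and at an unadjusted p under 0.05 there were 2 and 1 over 12 libraries as without control 1. Of all genes, 1.41% and 4.40% passed over 12 libraries, and 7.62% and 16.6% without control 1. Slc9a5 did not pass, with log2 changes of 0.39 under 15% CO2 and 0.40 with lactic acid (adjusted p = 0.157 and 0.0838).

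Of 7 partners that bind these carriers, 6 were tested. In low NaHCO3 3 passed, near the 56.2% of all genes: the exchanger cofactor Chp1 (0.37 ± 0.092) and the cotransporter regulator Ahcyl1 (0.32 ± 0.096) rose, and the scaffold Slc9a3r1 fell (−1.19 ± 0.099). Without control 1 Tesc, a calcium-binding partner of exchangers that was below 1 TPM in low NaHCO3, fell too (−0.61 ± 0.20), and with lactic acid Ahcyl1 rose (0.32 ± 0.092, adjusted p = 0.0397). Of all genes, 64.6% and 16.6% passed in these comparisons. Tesc passed the 1 TPM filter only through its higher groups, which makes a difference more likely, and its fall is given as a description. Under 15% CO2 0 passed with or without control 1, with 0 and 1 at an unadjusted p under 0.05, and Ahcyl1 and Chp1 had −0.0047 and −0.017 over 12 libraries. Of all genes, 1.41% passed there over 12 libraries and 7.62% without control 1.

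**Figure D4:**
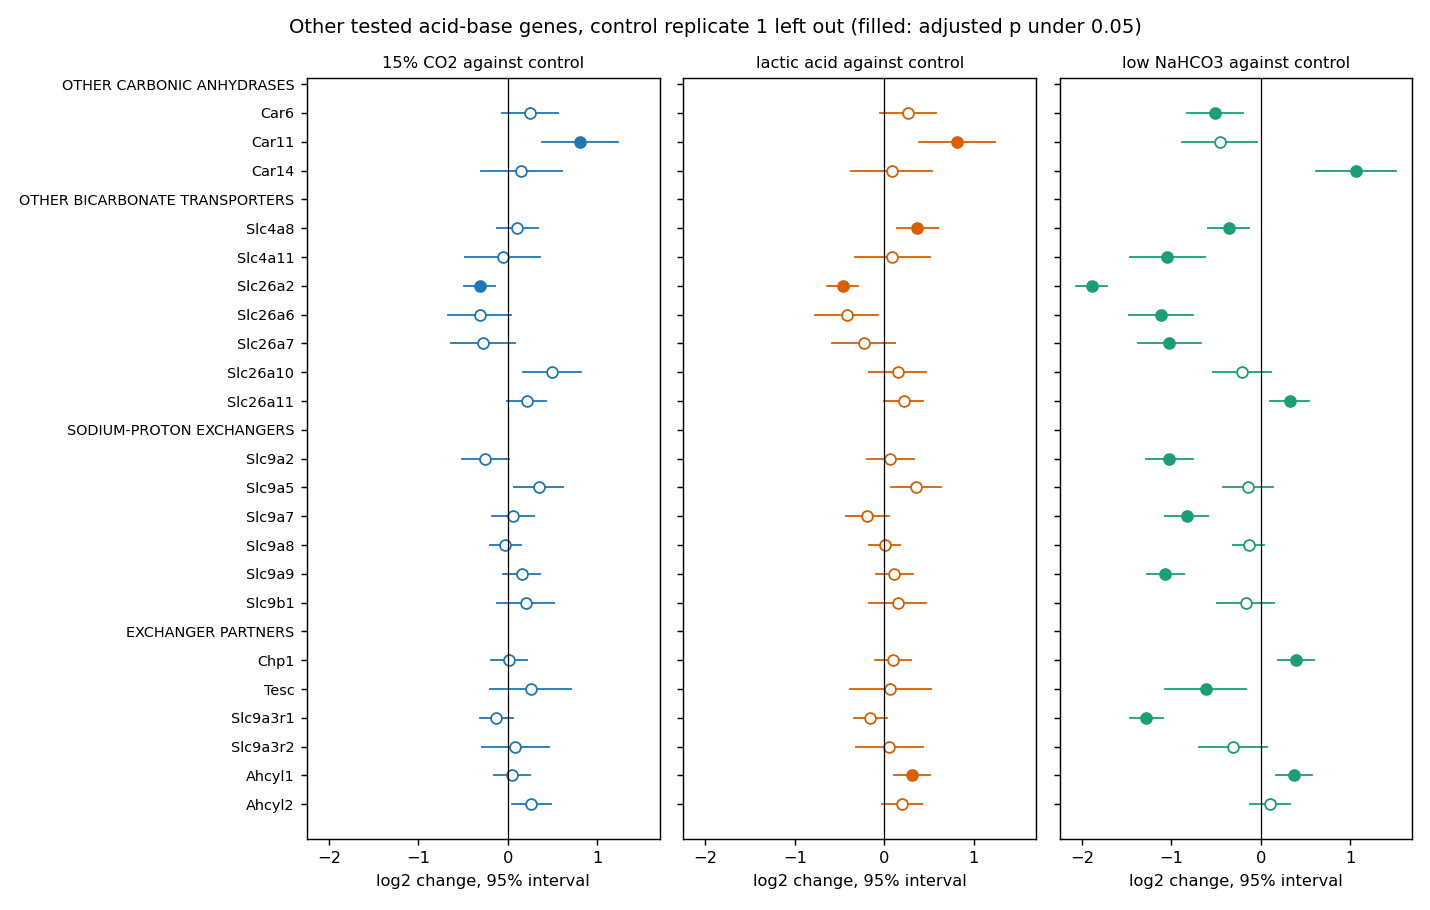
Log2 change against control, without control 1, of other tested genes of the acid-base lists, by treatment, with 95% intervals. Filled points have an adjusted p under 0.05. In low NaHCO3 the changes of Slc26a2, Slc9a3r1, Slc26a6, Slc9a9, Slc4a11, Slc26a7, Slc9a2 and Slc9a7 lie left of 0. Car14 was tested only through low NaHCO3, its highest group. Slc26a7, Slc9a2 and Tesc passed the filter through their higher groups.

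Car9 is known as a HIF target, so 20 other HIF targets were listed beside it, of which 19 were tested. Under 15% CO2, where Car9 rose by 0.94 on the log2 scale, 0 of 19 passed over 12 libraries, with 7 at an unadjusted p under 0.05. Of all genes 1.41% passed there, so a count of 0 is near the background and no result about the list. Without control 1, 4 rose: Ndrg1 (0.82 ± 0.11), Mxi1 (0.39 ± 0.085), Pfkfb3 (0.35 ± 0.080) and P4ha1 (0.34 ± 0.078), where 5.99% of all genes rose. The median change of the 19 was 0.20 over 12 libraries and 0.16 without control 1, beside 0.012 and 0.032 over all genes. With lactic acid the oxidase Ero1l (0.76 ± 0.15) and the growth factor Vegfa (0.49 ± 0.11) rose and Higd1a fell (−1.10 ± 0.28, adjusted p = 0.049), where 2.73% of all genes rose and 1.68% fell. Without control 1, 5 rose and 1 fell, where 9.31% and 7.34% of all genes did. Ndrg1 (0.91 ± 0.11), Mxi1 (0.67 ± 0.085) and Higd1a (−0.90 ± 0.27) then had the largest changes. In low NaHCO3 5 rose and 8 fell, where 20.5% of all genes rose and 35.8% fell, led by Ndrg1 (1.92 ± 0.38), a stress-responsive gene, and Adm (1.18 ± 0.16), a vasodilator peptide, above 0, and by the oxygen sensor Egln3 (−1.89 ± 0.17) and the stress gene Ddit4 (−1.18 ± 0.23) below it. Without control 1, 7 rose and 9 fell, where 23.1% and 41.5% of all genes did, and the 4 changes were 2.53 ± 0.11, 0.98 ± 0.11, −1.78 ± 0.17 and −1.004 ± 0.22. With median-of-ratios scaling the counts were 6 and 6 over 12 libraries and 7 and 7 without control 1. Of all genes, 3571 rose and 3239 fell of 11984 under that scaling, and 4072 rose and 3881 fell of 11999 without control 1.

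The genes whose pattern was most like each of these were found by Pearson r of log2(TPM + 1) over the 11 libraries without control 1, among 9810 expressed genes. Slc4a7 was closest to Plekha1 (r = 0.990), Amn1 (0.989) and Smim14 (0.989). Plekha1, for instance, had group means of 40.3 TPM in control, 46.0 TPM under 15% CO2, 51.2 TPM with lactic acid and 66.5 TPM in low NaHCO3. Slc4a2 was closest to Hnrnpm (0.995), Wdr81 (0.992) and Nop2 (0.990), and Slc4a3 to Kidins220 (0.996), Decr2 (0.995) and Ints6 (0.994). Slc4a4 was closest to Tmed4 (0.986), Mpnd (0.986) and Zfp617 (0.981), among 9811 genes. For Car9, with r of 0.933 for Zfp874a, 0.932 for Zfp420 and 0.929 for Ankzf1, the closest r was the lowest of the 6 genes. Car13 was closest to Cs (0.955), Zfp131 (0.948) and Dclk2 (0.944). The 11 libraries fall into 4 groups, which all these correlations share, and they carry no test.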

How the data were processed

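Per the labels' protocols, RNA extracted with Trizol was turned into NEBNext Ultra II libraries. Per the submitters' processing notes, reads were processed with fastp 0.22.0 and HISAT2 2.1.0 against GRCm39; for the counter, annotation and strand setting, the sources used here give no name. The authors deposited TPM, with no counts, so depth and counting errors are unknown. Replicates 2 and 3 carry CO3 or CO4 in their descriptions and rising reagent numbers, which were read as copying errors; groups follow the treatment labels. Of 21959 Ensembl IDs, 21851 found a symbol in GENCODE M21.

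Genes with at least 1 TPM in all 3 libraries of a group were fitted on log2(TPM + 1) in a group-means model, with the limma package (3.58.1; R 4.3.3), empirical Bayes with a trend and two-sided tests, and Benjamini-Hochberg adjustment was made within each of 6 contrasts and the F test. The fit was tested on simulated data. All 12 libraries entered, and a second fit left out control 1. Named list genes are up to 4 past the threshold with the largest changes, or else the 2 most abundant, though a few are not reported here; the 3 likest genes had a mean of at least 5 TPM and no predicted or clone-based name. Genes, lists and tests were chosen with earlier results of these data known. Alternatives were median-of-ratios scaling, a pseudocount of 0.1, a 5 TPM minimum or none at all, fits of only the groups compared, the replicate block, single libraries left out, and several of these without control 1. The 2 chosen after seeing the files were no filter without control 1, and each further library left out from that fit.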

Additional observations from a re-analysis of the deposited data

How the results depend on the processing

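Without control 1, Car13, Slc4a3 and Slc4a4 changed sign against control. Under 15% CO2 their log2 changes became −0.096, 0.444 and 0.248, with lactic acid −0.0099, 0.038 and 0.350, and Car13 in low NaHCO3 became −0.225; no filter gave the same values. With log2(TPM + 0.1) they were −0.097, 0.497 and 0.424 under 15% CO2, −0.010, 0.043 and 0.586 with lactic acid, and −0.226 for Car13 in low NaHCO3. With median-of-ratios scaling they were −0.131, 0.410 and 0.223, then −0.0017, 0.045 and 0.349, and −0.034. With 15% CO2 3 and lactic acid 3 also left out they were −0.052, 0.539 and 0.291 under 15% CO2, 0.059 and 0.409 for Slc4a3 and Slc4a4 with lactic acid, and −0.225 for Car13 in low NaHCO3. Median-of-ratios scaling turned the differences of Car9 and Car13 between low NaHCO3 and 15% CO2 to 0.141 and 0.10, and to 0.139 and 0.097 without control 1. Over fits with 1 library left out, from the 12 or besides control 1, Car13 ran from −0.124 to 0.275, −0.053 to 0.362 and −0.237 to 0.147 in the 3 treatments, Slc4a3 from −0.614 to 0.539 and −1.020 to 0.066 in the first 2, and Slc4a4 from −2.082 to 0.313 and −1.980 to 0.416. The cause was not tested.

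The number of the 8 genes that passed under 15% CO2 was 1, and it became 2 with a filter at 5 TPM or median-of-ratios scaling and 0 in a fit of only the 2 groups. Over all genes, 180 of 10281, 174 of 11984 and 0 of 11798 passed in these settings. Without control 1 the number of the 8 was 2 with log2(TPM + 0.1), 4 with median-of-ratios scaling and 3 with the 2 further libraries out. Of all genes, 828 of 12023, 1355 of 11999 and 1641 of 12105 passed there. With lactic acid 3 became 0 in a fit of only the 2 groups, where 0 of 11743 genes passed in all. Between lactic acid and 15% CO2, 0 became 1 in a fit of only the 2 groups, and without control 1 it was 3 with median-of-ratios scaling and 1 with log2(TPM + 0.1), no filter or the 2 further libraries out. In that order, 185 of 11804, 839 of 11999, 496 of 12023, 429 of 21959 and 743 of 12105 of all genes passed. Between low NaHCO3 and 15% CO2, 3 became 5 without control 1 with no filter or the 2 further libraries out, beside 8406 of 21959 and 8850 of 12105 genes. Between low NaHCO3 and lactic acid, 3 became 5 in a fit of only the 2 groups, and without control 1 it was 6 with log2(TPM + 0.1), 5 with median-of-ratios scaling or the 2 further libraries out, and 7 with no filter. In that order, 7704 of 11778, 8175 of 12023, 8473 of 11999, 8444 of 12105 and 7929 of 21959 of all genes passed. With no filter and without control 1, 7 passed in low NaHCO3 against control, beside 7478 of 21959 genes. In the F test 7 passed, and the count over all genes there is not given. With no filter, Car12 and Car5b were tested too.

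Leaving out single libraries from the 12 gave 1 to 2 genes under 15% CO2, 2 to 3 with lactic acid, 4 to 6 in low NaHCO3, 0 to 1 between lactic acid and 15% CO2, 3 to 4 and 2 to 6 between low NaHCO3 and 15% CO2 or lactic acid, and 3 to 6 in the F test. Leaving out further libraries with control 1 gave 1 to 4, 3, 4 to 6, 0 to 2, 4 to 5, 5 to 6 and 5 to 6. Where 1 control was left, it was assumed to vary like the other groups. With control 1 and a treated library left out, 351 of 12069 to 2009 of 12056 of all genes passed under 15% CO2. With lactic acid it was 1511 of 12057 to 2169 of 12055, and between these treatments 169 of 12069 to 746 of 12056. Low NaHCO3 differed in 7109 to 8362 from control, 7763 to 8966 from 15% CO2 and 7440 to 8320 from lactic acid. These are more of all genes than not, so counts of the listed genes there are near the background.

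Over all genes, the counts under 15% CO2, with lactic acid and between these 2 were 169, 528 and 40. They were 0, 0 and 185 in fits of only the groups compared, 174, 816 and 46 with median-of-ratios scaling, 916, 2001 and 577 without control 1, and 166, 496 and 24 with log2(TPM + 0.1). With any 1 library left out they ran from 30 to 916, 107 to 2001 and 6 to 577. The counts of low NaHCO3 against control, 15% CO2 and lactic acid then ran from 5564 to 7772, 5212 to 8410 and 4788 to 8185.

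Replicate numbers are shared between groups. Of 18 pairs of libraries with the same number, deviations from group means correlated between −0.149 and 0.490, with 3 above 0.1, and 3 of 12 libraries correlated best with their own number, so the numbers were not taken to pair the samples. With the replicate number as a block the counts were 1, 3, 4, 0, 3 and 3 in the 6 contrasts and 4 in the F test, the same as without it. Over all 11996 genes the block gave 92 under 15% CO2, 373 with lactic acid and 13 between these groups. Low NaHCO3 then differed in 6749 from control, 6286 from 15% CO2 and 5959 from lactic acid. The F test count over all genes with the block is not given.

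Depth is unknown, so values near 0 TPM, as for Car12 and Car5b, carry no detection limit, and without counts their precision rests on 3 libraries a group.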
